A study of Homo sapiens with 8 samples.

Results

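The genes described here are 42 members of the amino acid branch of the stress response: the transcription factor ATF4 with 23 genes known as its targets or partners, and 18 cytosolic aminoacyl-tRNA synthetases. They were chosen by symbol, as rows found in both deposited tables, and all 42 were found among the 19479 genes listed. All 42 passed the filter on low values in every comparison, with at least 13 reads in each library (fewest for GDF15). The RNA came from AC16, a dividing human line made by fusing ventricular cardiomyocytes with a transformed fibroblast line. The 8 libraries fall into 4 groups of 2: cells kept at 5 mM glucose, such cells with 45 mM glucose added for 24 h (5 to 50 mM), cells kept at 25 mM glucose, and such cells with 25 mM glucose added for 24 h (25 to 50 mM). Cells had been at 5 or 25 mM glucose for at least 3 passages. No osmotic control is among the libraries, so glucose and osmolarity cannot be told apart in the rises. All groups share the line and the medium, DMEM with fetal bovine serum and antibiotics. The labels do not say whether the libraries of a starting glucose came from separate cultures. The replicates are described as technical, so p-values measure the spread between libraries and not between independent cultures. Starting glucose and culture history cannot be told apart.

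ATF4 is a transcription factor whose protein is made when the initiation factor eIF2 is phosphorylated by one of its kinases, during amino acid shortage, unfolded protein in the endoplasmic reticulum, viral RNA or haem shortage. Its control is mainly in translation, so the level of its mRNA need not follow its activity. With C/EBP partners it binds composite elements in genes for amino acid synthesis and import, for one-carbon metabolism, for tRNA charging and for cell death. A synthetase joins an amino acid to its tRNA, and in animal cells part of the cytosolic synthetases sit together in the multi-synthetase complex. In heart muscle cells this response is known from ischaemia and from faults of mitochondria.

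The composite element has the core TGATGNAA, searched on both strands. It was sought in the 250 bases before to 50 after 1 RefSeq start (GRCh38.p14) per gene, which need not be the outermost. The start used for SLC3A2 lies inside its gene span, which begins at base 62856109. Of the 42 members, 33 had a sequence in that table, and 10 of the 33 (30.3%) held the core, against 159 of 9872 tested genes with a sequence (1.61%). They included ATF3 and SLC3A2 of the ATF4 group (4 of 19 held it) and AARS, CARS, IARS, MARS, NARS and TARS of the synthetases (6 of 14). A match is a description of these letters and not a bound site. The members were chosen as genes of a response known to use this element, so these shares are no test of it. The sequences shown are of NARS and SLC3A2, members with a match that were called lower at 25 mM against 5 mM, with the match in capitals, 5′ to 3′ on the strand of the gene. In both the match lies after the start, and 30 bases are given (chr18:57621804-57621833 on the minus strand and chr11:62881719-62881748 on the plus strand).
NARS: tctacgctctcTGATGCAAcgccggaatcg
SLC3A2: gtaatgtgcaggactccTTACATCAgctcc
In NARS the letters TGATGCAA began at base 15 and in SLC3A2 the letters TTACATCA, the core read on the other strand, at base 38 after the start. Among the members with a sequence, the core was in 4 of the 17 called lower at 25 mM against 5 mM (23.5%), in 0 of the 2 called higher and in 6 of the 14 not called (42.9%), by the limma test given with that comparison.

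The library totals behind the RPKM values were 21538898 to 27372851 reads. Of each total 99.9% lay in the listed genes, so these are not all reads sequenced. The labels call the cells cardiomyocytes. Of 10 cardiomyocyte markers, 9 were under 1 RPKM in every library and 2 of these were at 0 throughout (summed level 0.395 to 1.56 RPKM), while all 10 fibroblast markers were at 1 RPKM or more in every library. RPKM values are read counts divided by the length of the gene and by the size of the library. Some library features moved with the starting glucose. The summed level of 10 replication-dependent histones was 43.3 to 57.6 RPKM in the 4 libraries started at 25 mM and 255 to 380.4 RPKM in the 4 started at 5 mM. Of these 10, 3 were under 1 RPKM in every library. At 25 mM against 5 mM only 5 were tested, and limma called 4 lower (22.1% of all genes tested). Fibroblast markers summed to 2954 to 3260.4 RPKM against 2273 to 2566 RPKM, though at 25 mM against 5 mM limma called 6 of the 10 higher and PDGFRA and FAP lower. Smooth muscle markers summed to 554 to 917 RPKM against 1008 to 1501 RPKM, where of the 4 tested ACTA2 and TAGLN were called lower and CNN1 and MYOCD higher. The leukocyte list, led by the lysosomal CD68, summed to 86.4 to 93.0 RPKM against 216 to 253 RPKM. Their part in the results by starting glucose was not tested. In addition 3 libraries departed by GC content. GC-rich genes stood 0.22 below GC-poor ones on the log2 scale in 25 to 50 mM replicate 3, 0.14 below in 5 mM replicate 1 and 0.23 above in 5 mM replicate 3, and 0.003 to 0.072 above in the other 5. In bulk RNA, a change in the share of cells that express a gene and a change in RNA per cell cannot be told apart.

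Across the 8 libraries the members' levels spanned the range from GDF15 at 0.561 RPKM to STC2 at 886 RPKM. ATF4 itself (Entrez Gene 468, chromosome 22, 39520559 to 39522686) was at 322 and 299 RPKM at 5 mM, 333 and 333 RPKM at 5 to 50 mM, 307 and 308 RPKM at 25 mM and 302 and 341 RPKM at 25 to 50 mM. All 8 values lay between 299 and 341 RPKM, and the groups overlapped. STC2 was the only member above ATF4 in any library. The synthetases lay close together, 16 of them between 60.9 and 226 RPKM, with CARS at 14.1 to 15.9 and VARS at 11.7 to 14.1 RPKM below them. The deposited values of VARS rest on a length of 23633 bases, longer than the 18235 bases its gene spans in RefSeq. Those of CARS rest on 5008 bases, so neither level can be set against the others per length. Lengths for 38 of the 42 members are multiples of 3, as coding lengths are.

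**Figure D1:**
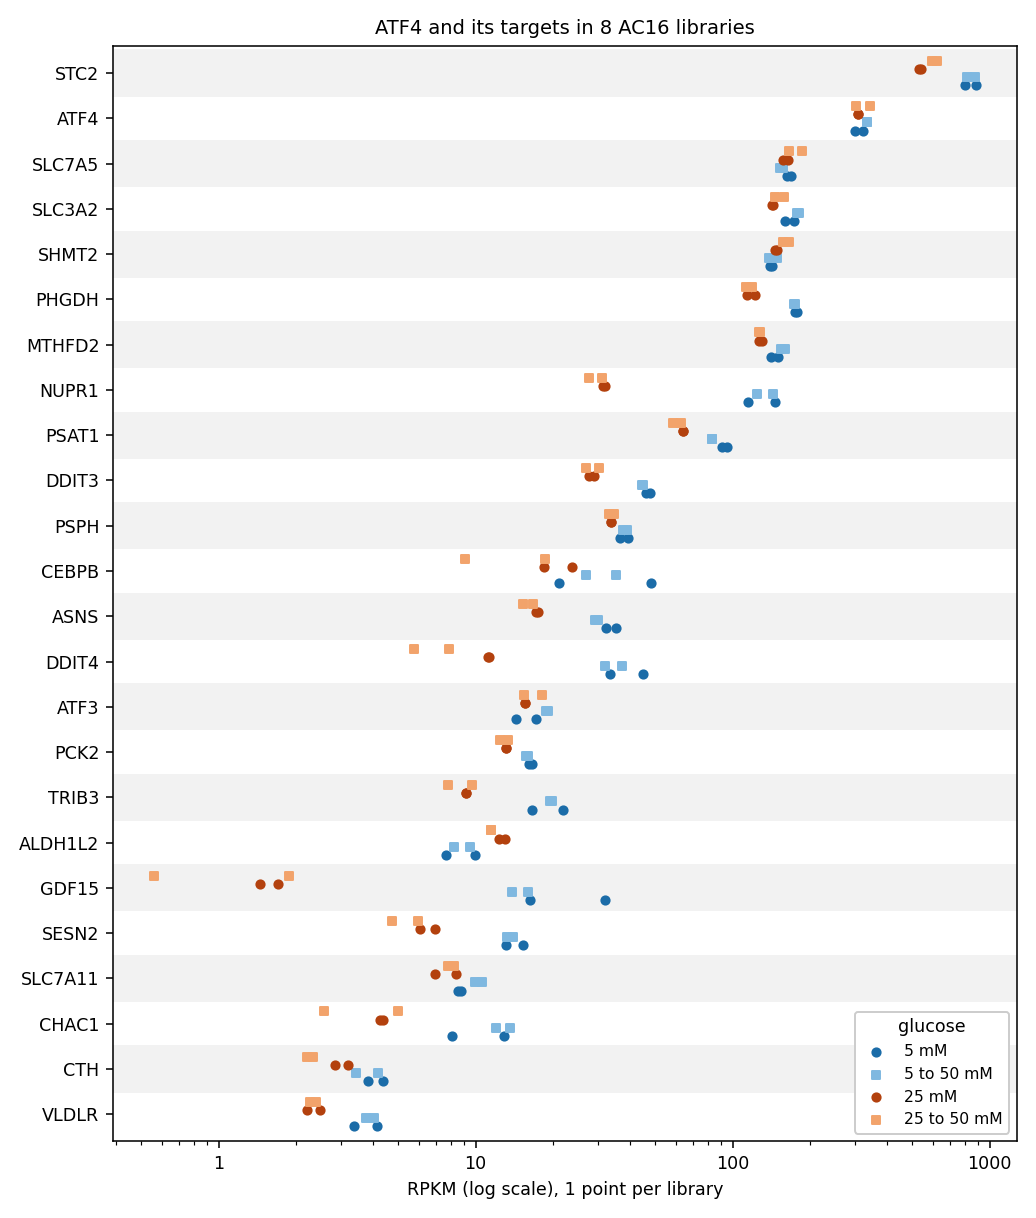
RPKM (x axis, log scale) of ATF4 and 23 targets in each of the 8 libraries, 1 point per library, coloured by glucose group (5 mM and 5 to 50 mM in blue, 25 mM and 25 to 50 mM in orange) and ordered by mean level. ATF4 stays between 299 and 341 RPKM. For 18 of the 24 genes all 4 blue points lie right of all 4 orange points, as for 26.5% of all genes tested.

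Cells kept at 25 mM glucose had lower levels of most ATF4 targets than cells kept at 5 mM, while few synthetases were called and in both directions. Of the 24 genes of the ATF4 group, 16 were lower at 25 mM, 1 was higher and 7 did not pass. Of the 18 synthetases, 2 were lower, 3 were higher and 13 did not pass. The test was limma's moderated test on log2(RPKM + 1) over 11941 genes and all 8 libraries, with Benjamini-Hochberg adjusted p under 0.05. Of all genes tested, 22.1% were called lower and 17.0% higher, 39.1% in all. The median log2 change was -0.51 for the ATF4 group, 0.027 for the synthetases and -0.004 for all genes tested. The synthetase median was -0.051 without 5 mM replicate 3. Without both libraries that depart most by GC, 5 mM replicate 3 and 25 to 50 mM replicate 3, 21 members were lower and 4 higher. After a GC correction, which moved the median of all genes by 0.085, the split was 16 lower and 7 higher. PCK2 (log2 change -0.17) and SLC3A2 (-0.075) then no longer passed, and EPRS, KARS and LARS passed as higher. The 22.1% and 17.0% are of the fit with all libraries and no correction. Shares of all genes in the other settings are not given.

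All 6 stress effectors and secreted or surface proteins were lower at 25 mM, with a median log2 change of -1.05. GDF15 (Entrez Gene 9518, chromosome 19, 18386158 to 18389176), a stress cytokine that limits appetite through a receptor of the hindbrain, was at 16.3 and 31.8 RPKM at 5 mM, 16.0 and 13.8 RPKM at 5 to 50 mM, 1.46 and 1.71 RPKM at 25 mM and 1.89 and 0.561 RPKM at 25 to 50 mM. Its lowest value from 5 mM, 13.8 RPKM, was far above its highest from 25 mM, 1.89 RPKM, and within 5 mM its 2 libraries differed 1.94-fold. The log2 change was -3.21 (SE 0.34, adjusted p = 0.000286, limma), on a scale that understates the change of genes this low. DDIT4 (Entrez Gene 54541, chromosome 10, 72273924 to 72276036), which restrains the growth kinase mTORC1, was at 33.3 and 44.8 RPKM at 5 mM, 37.1 and 32.0 RPKM at 5 to 50 mM, 11.3 and 11.2 RPKM at 25 mM and 7.92 and 5.78 RPKM at 25 to 50 mM. The groups from 5 mM and from 25 mM did not overlap, and the log2 change was -1.70 (SE 0.17, adjusted p = 0.000195, limma). Another brake on mTORC1, the leucine sensor SESN2, was at 13.2 and 15.3 RPKM at 5 mM, 14.0 and 13.3 RPKM at 5 to 50 mM, 6.05 and 6.96 RPKM at 25 mM and 5.98 and 4.72 RPKM at 25 to 50 mM. Every library from 5 mM was above every library from 25 mM, with a log2 change of -1.02 (SE 0.12).

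CHAC1 (Entrez Gene 79094, chromosome 15, 40953471 to 40956512), an enzyme that degrades glutathione, was at 8.12 and 12.9 RPKM at 5 mM, 13.6 and 12.0 RPKM at 5 to 50 mM, 4.37 and 4.24 RPKM at 25 mM and 4.99 and 2.57 RPKM at 25 to 50 mM. The 5 mM libraries differed 1.59-fold, yet both stood above all 4 from 25 mM (log2 change -1.09, SE 0.26, adjusted p = 0.0131, limma). STC2, a secreted glycoprotein, was at 805 and 886 RPKM at 5 mM, 819 and 881 RPKM at 5 to 50 mM, 541 and 531 RPKM at 25 mM and 597 and 623 RPKM at 25 to 50 mM. It was the most abundant member, and its log2 change was -0.66 (SE 0.060). VLDLR, a lipoprotein receptor induced by ATF4, was at 4.13 and 3.36 RPKM at 5 mM, 4.02 and 3.76 RPKM at 5 to 50 mM, 2.20 and 2.48 RPKM at 25 mM and 2.39 and 2.27 RPKM at 25 to 50 mM. These low values did not overlap between the starting cultures (log2 change -0.50, SE 0.11, adjusted p = 0.0081, limma).

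Among the 6 transcription factors and feedback genes, NUPR1, TRIB3 and DDIT3 were lower at 25 mM, while ATF4, ATF3 and CEBPB did not pass. NUPR1 (Entrez Gene 26471, chromosome 16, 28532708 to 28538974), a small nuclear protein induced by stress, was at 115 and 146 RPKM at 5 mM, 125 and 143 RPKM at 5 to 50 mM, 31.3 and 31.8 RPKM at 25 mM and 31.0 and 27.7 RPKM at 25 to 50 mM. The libraries from 5 mM were all above 114 RPKM and those from 25 mM all below 32 RPKM, with a log2 change of -2.00 (SE 0.12, adjusted p = 1.76e-05, limma). TRIB3, a pseudokinase that restrains ATF4, was at 16.6 and 21.9 RPKM at 5 mM, 19.8 and 19.4 RPKM at 5 to 50 mM, 9.16 and 9.22 RPKM at 25 mM and 9.66 and 7.81 RPKM at 25 to 50 mM. DDIT3, the factor CHOP that acts in stress-induced cell death, was at 47.9 and 46.1 RPKM at 5 mM, 44.2 and 44.8 RPKM at 5 to 50 mM, 27.5 and 28.99 RPKM at 25 mM and 27.0 and 30.3 RPKM at 25 to 50 mM. For both genes all 4 libraries from 5 mM stood above the others, with log2 changes of -0.98 (SE 0.14) and -0.71 (SE 0.067).

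ATF4 had a log2 change of -0.015 (95% interval -0.16 to 0.13, adjusted p = 0.876, limma) between the maintenance levels. ATF3, a stress-induced factor of the same family, was at 14.3 and 17.1 RPKM at 5 mM, 19.2 and 18.8 RPKM at 5 to 50 mM, 15.5 and 15.5 RPKM at 25 mM and 18.1 and 15.4 RPKM at 25 to 50 mM. Its groups overlapped (log2 change -0.011, 95% interval -0.25 to 0.23). CEBPB, a C/EBP factor that pairs with ATF4, was at 21.1 and 48.0 RPKM at 5 mM, 35.1 and 26.9 RPKM at 5 to 50 mM, 18.4 and 23.7 RPKM at 25 mM and 18.7 and 9.06 RPKM at 25 to 50 mM. Here the libraries of a group differed widely, 2.27-fold at 5 mM and 2.06-fold at 25 to 50 mM, with the high 5 mM library being replicate 3 and the low 25 to 50 mM library replicate 3, those with the strongest departures by GC in each direction. CEBPB transcripts were 66.2% GC, the highest of the 42. The part of GC content in this spread was not tested. Its log2 change was -0.59 with a 95% interval of -1.54 to 0.37 (adjusted p = 0.295, limma).

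Of the 9 enzymes of amino acid and one-carbon metabolism, 6 were lower at 25 mM, ALDH1L2 was higher, and PSPH and SHMT2 did not pass. ASNS (Entrez Gene 440, chromosome 7, 97851677 to 97928441), which makes asparagine, was at 35.2 and 32.2 RPKM at 5 mM, 29.9 and 29.1 RPKM at 5 to 50 mM, 17.2 and 17.5 RPKM at 25 mM and 15.3 and 16.7 RPKM at 25 to 50 mM. The libraries from 5 mM were all above 29 RPKM and those from 25 mM all at 17.5 RPKM or less (log2 change -0.92, SE 0.070, adjusted p = 5.43e-05, limma). The serine pathway from a glycolytic intermediate runs through PHGDH, PSAT1 and PSPH in turn. PHGDH was at 175 and 178 RPKM at 5 mM, 173 and 175 RPKM at 5 to 50 mM, 114 and 122 RPKM at 25 mM and 119 and 113 RPKM at 25 to 50 mM. PSAT1 was at 94.9 and 90.8 RPKM at 5 mM, 83.3 and 83.4 RPKM at 5 to 50 mM, 64.2 and 64.0 RPKM at 25 mM and 58.6 and 63.0 RPKM at 25 to 50 mM. Neither gene overlapped between starting cultures, with log2 changes of -0.57 (SE 0.049) and -0.53 (SE 0.052). PSPH, at 33.2 to 39.3 RPKM, was also above in all 4 libraries from 5 mM but just missed the threshold (log2 change -0.16, SE 0.058, adjusted p = 0.0584, limma).

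Of 3 mitochondrial folate enzymes, 1 was lower at 25 mM, 1 was higher and 1 did not pass. SHMT2, which splits serine to glycine, was at 143 and 139.9 RPKM at 5 mM, 139 and 149 RPKM at 5 to 50 mM, 149 and 146 RPKM at 25 mM and 157 and 166 RPKM at 25 to 50 mM. At the maintenance levels its groups lay close together (log2 change 0.063, 95% interval -0.056 to 0.18). MTHFD2, the next enzyme, was at 149.8 and 141 RPKM at 5 mM, 154 and 159 RPKM at 5 to 50 mM, 127 and 129.96 RPKM at 25 mM and 127 and 128 RPKM at 25 to 50 mM. It was lower at 25 mM by a small amount (log2 change -0.18, SE 0.047, adjusted p = 0.0197, limma). ALDH1L2, which oxidises formyl-folate in mitochondria, was at 9.98 and 7.64 RPKM at 5 mM, 8.25 and 9.49 RPKM at 5 to 50 mM, 12.3 and 13.0 RPKM at 25 mM and 11.5 and 11.5 RPKM at 25 to 50 mM. It was the only one of the 24 called higher at 25 mM, and all 4 libraries from 25 mM were above those from 5 mM (log2 change 0.49, SE 0.12, adjusted p = 0.015, limma).

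The other enzymes called lower were CTH and PCK2. CTH, which makes cysteine from cystathionine, was at 4.35 and 3.81 RPKM at 5 mM, 4.18 and 3.43 RPKM at 5 to 50 mM, 2.83 and 3.20 RPKM at 25 mM and 2.20 and 2.33 RPKM at 25 to 50 mM. Its level is low, the lowest value from 5 mM (3.43 RPKM) was only just above the highest from 25 mM (3.20 RPKM), and its adjusted p was 0.0468 (log2 change -0.34, SE 0.11, limma). PCK2, the mitochondrial enzyme that makes phosphoenolpyruvate, was at 16.6 and 16.2 RPKM at 5 mM, 15.7 and 16.0 RPKM at 5 to 50 mM, 13.2 and 13.1 RPKM at 25 mM and 13.4 and 12.4 RPKM at 25 to 50 mM. The starting cultures did not overlap (log2 change -0.30, SE 0.067).

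Among the transporters, SLC3A2 was lower at 25 mM, and SLC7A11 and SLC7A5 did not pass. SLC3A2, the heavy chain shared by both exchangers, was at 159.6 and 173 RPKM at 5 mM, 181 and 178 RPKM at 5 to 50 mM, 143 and 144 RPKM at 25 mM and 158 and 146 RPKM at 25 to 50 mM. SLC7A11, the light chain that imports cystine in exchange for glutamate, was at 8.79 and 8.51 RPKM at 5 mM, 9.95 and 10.6 RPKM at 5 to 50 mM, 8.36 and 6.97 RPKM at 25 mM and 7.78 and 8.24 RPKM at 25 to 50 mM. SLC7A5, the light chain for large neutral amino acids such as leucine, was at 163 and 168 RPKM at 5 mM, 157 and 153 RPKM at 5 to 50 mM, 165 and 158 RPKM at 25 mM and 186 and 166 RPKM at 25 to 50 mM. The heavy chain was higher in all 4 libraries from 5 mM (log2 change -0.21, SE 0.057, adjusted p = 0.0213, limma), SLC7A11 also lay higher there with log2 change -0.16 (adjusted p = 0.225), and SLC7A5 overlapped.

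**Figure D2:**
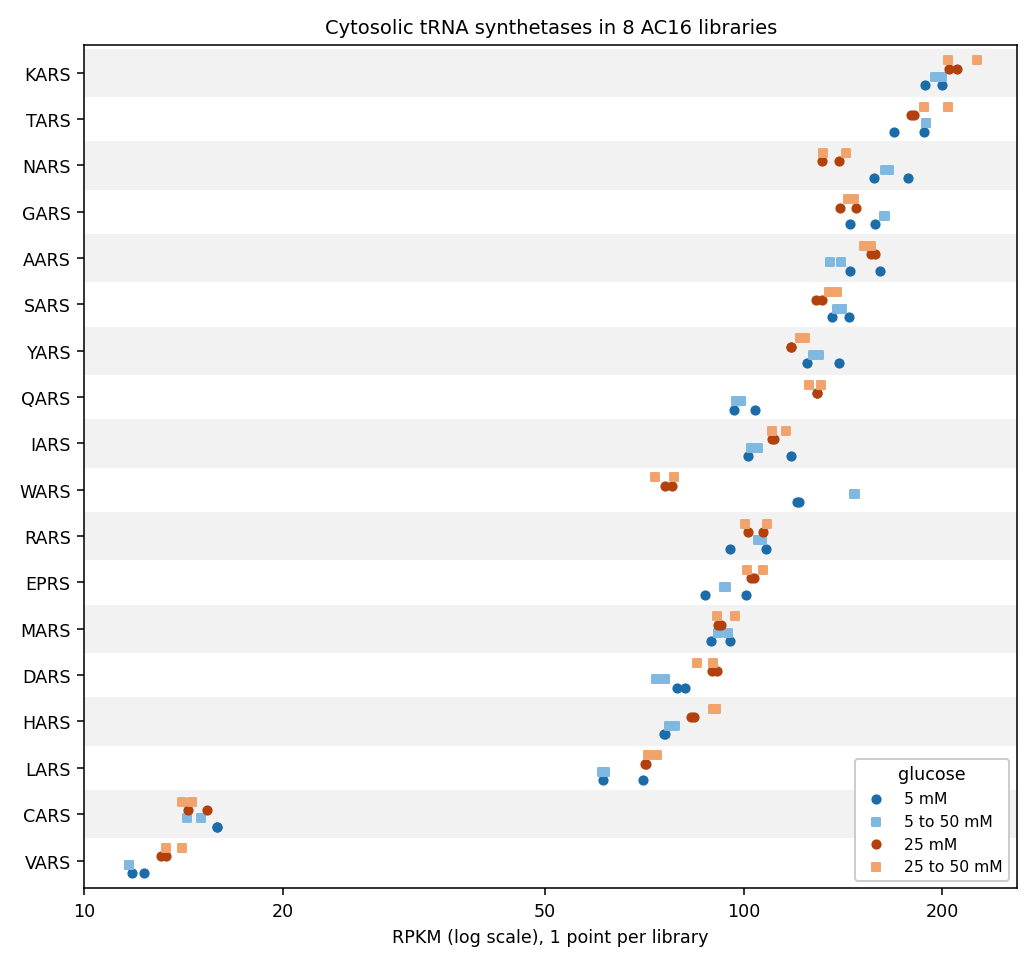
RPKM (x axis, log scale) of 18 cytosolic tRNA synthetases in each of the 8 libraries, 1 point per library, with the same colours by glucose group and ordered by mean level. WARS stands out at 120.4 to 148 RPKM from 5 mM and 73.3 to 78.5 RPKM from 25 mM, while 8 of the 18 overlap between the starting cultures.

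WARS and NARS were the synthetases lower at 25 mM. WARS (Entrez Gene 7453, chromosome 14, 100333790 to 100376327), which charges tryptophan and is also known as an interferon-induced gene, was at 120.4 and 121 RPKM at 5 mM, 147 and 148 RPKM at 5 to 50 mM, 76.0 and 78.0 RPKM at 25 mM and 73.3 and 78.5 RPKM at 25 to 50 mM. The libraries from 5 mM were all above 120 RPKM and those from 25 mM all below 79 RPKM, with a log2 change of -0.64 (SE 0.048, adjusted p = 5e-05, limma). NARS, for asparagine, was at 177 and 158 RPKM at 5 mM, 166 and 164 RPKM at 5 to 50 mM, 131 and 139.6 RPKM at 25 mM and 132 and 143 RPKM at 25 to 50 mM. Its starting cultures did not overlap either (log2 change -0.30, SE 0.069, adjusted p = 0.0105, limma). YARS, for tyrosine, was at 139.7 and 125 RPKM at 5 mM, 127 and 130.25 RPKM at 5 to 50 mM, 118 and 118 RPKM at 25 mM and 122 and 124 RPKM at 25 to 50 mM. All 4 values from 5 mM were above the others by a small amount, and it did not pass (log2 change -0.16, SE 0.058, adjusted p = 0.0647, limma).

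QARS, DARS and HARS were higher at 25 mM. QARS (Entrez Gene 5859, chromosome 3, 49095932 to 49104757), for glutamine, was at 104 and 96.6 RPKM at 5 mM, 97.3 and 99.0 RPKM at 5 to 50 mM, 129 and 129 RPKM at 25 mM and 126 and 131 RPKM at 25 to 50 mM. Every library from 25 mM was above 125 RPKM and every library from 5 mM was at or below 104 RPKM, with a log2 change of 0.36 (SE 0.051, adjusted p = 0.00106, limma). DARS, for aspartate, was at 81.4 and 79.3 RPKM at 5 mM, 75.9 and 73.6 RPKM at 5 to 50 mM, 89.4 and 91.2 RPKM at 25 mM and 85.0 and 89.8 RPKM at 25 to 50 mM. HARS, for histidine, was at 75.8 and 76.0 RPKM at 5 mM, 78.7 and 76.9 RPKM at 5 to 50 mM, 84.2 and 83.3 RPKM at 25 mM and 89.9 and 90.9 RPKM at 25 to 50 mM. Both showed no overlap between starting cultures, with small log2 changes of 0.17 (SE 0.048, adjusted p = 0.0289, limma) and 0.14 (SE 0.042, adjusted p = 0.0326, limma).

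AARS, for alanine, was at 161 and 145 RPKM at 5 mM, 135 and 140.5 RPKM at 5 to 50 mM, 158 and 156 RPKM at 25 mM and 152 and 156 RPKM at 25 to 50 mM. The maintenance groups overlapped (log2 change 0.039, 95% interval -0.095 to 0.17). The 8 synthetases not described by library (CARS, EPRS, IARS, KARS, MARS, RARS, SARS and TARS) did not pass in any comparison. At 25 mM against 5 mM their log2 changes ran from -0.11 (SARS) to 0.14 (EPRS), at 25 to 50 mM against 5 to 50 mM from -0.034 (SARS) to 0.15 (EPRS), on the rise from 5 mM from -0.11 (CARS) to 0.086 (TARS), and on the rise from 25 mM from -0.052 (CARS) to 0.12 (TARS).

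By place in the cell, 2 of the 8 synthetases of the multi-synthetase complex were higher (QARS and DARS), and the median log2 change was 0.10. Of these 8, 0 were lower at an adjusted or an unadjusted p under 0.05 by limma. Of the 10 outside the complex, 1 was higher, 2 were lower and the median was -0.081. Of all genes tested, 17.0% were higher and 22.1% lower at an adjusted p, and 26.3% were lower at an unadjusted p. The difference between these subgroups was not tested. In all, 12 of the 22 calls at 25 mM against 5 mM held in each of 17 other settings: ASNS, DDIT3, DDIT4, GDF15, NUPR1, PHGDH, PSAT1, QARS, SESN2, STC2, TRIB3 and WARS. The other 10 calls (CHAC1, MTHFD2, VLDLR, SLC3A2, ALDH1L2, CTH, PCK2, DARS, HARS and NARS) were lost without 25 mM replicate 1, which left 12. Without 25 mM replicate 3 these same 10 less VLDLR and NARS were lost, which left 14, and each of the other 6 libraries left out cost 2 to 4 of the calls among CHAC1, MTHFD2, SLC3A2, CTH, DARS and HARS.

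The same contrast after the rise, 25 to 50 mM against 5 to 50 mM, compared cultures at the same final glucose. Of the 42 members, 20 were lower and 7 higher in cells that started at 25 mM, and 15 did not pass, against 23.3% lower and 18.1% higher among all genes tested (41.4% in all). In the ATF4 group 17 were lower and 2 higher, with a median log2 change of -0.51. In the synthetases 3 were lower and 5 higher, with a median of 0.086, and the median of all genes was -0.023. These shares of all genes are of the fit with all libraries and no correction, and those of the next settings are not given. After a GC correction, which moved the median of all genes by 0.11, the split was 18 lower and 12 higher. Without both libraries that depart most by GC it was 23 lower and 8 higher.

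The largest changes were again GDF15 (-2.90, SE 0.34), DDIT4 (-2.19, SE 0.17) and NUPR1 (-2.15, SE 0.12). CHAC1 had a log2 change of -1.58 (SE 0.26), SESN2 one of -1.21 (SE 0.12) and TRIB3 one of -1.09 (SE 0.14). WARS had one of -0.95 (SE 0.048), and it was the only synthetase with a log2 change of more than 0.4 in either direction. Of members that had not passed at the maintenance levels, SLC7A11 was lower here (log2 change -0.33, SE 0.10, adjusted p = 0.0278, limma), and SHMT2 (0.16, adjusted p = 0.0368) and SLC7A5 (0.18, adjusted p = 0.047) were higher. ATF4 had a log2 change of -0.051 (95% interval -0.20 to 0.10) and CEBPB one of -1.17 (95% interval -2.13 to -0.22, adjusted p = 0.0528, limma).

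GARS, for glycine, was at 158 and 145 RPKM at 5 mM, 163 and 164 RPKM at 5 to 50 mM, 140.1 and 148 RPKM at 25 mM and 144 and 147 RPKM at 25 to 50 mM. Cells that had started at 25 mM had the lower level (-0.17 on the log2 scale with SE 0.055, limma adjusted p = 0.0408), and with a GC correction its log2 change was 0.013. LARS, for leucine, was at 70.4 and 61.2 RPKM at 5 mM, 61.6 and 60.9 RPKM at 5 to 50 mM, 71.0 and 70.8 RPKM at 25 mM and 71.7 and 73.8 RPKM at 25 to 50 mM. VARS, for valine, was at 11.8 and 12.3 RPKM at 5 mM, 11.7 and 11.7 RPKM at 5 to 50 mM, 13.3 and 13.1 RPKM at 25 mM and 14.1 and 13.3 RPKM at 25 to 50 mM. Both were called higher, with log2 changes of 0.24 (SE 0.067, adjusted p = 0.0223, limma) and 0.21 (SE 0.067, adjusted p = 0.0363, limma), and neither overlapped between the starting cultures. Of the 27 calls, 16 held in each other setting in which the gene was tested: the 12 named for the maintenance levels with CHAC1, CTH, MTHFD2 and VLDLR. CTH and VLDLR were under a mean of 5 RPKM, so that the setting with this filter did not test them. The other 11 (SHMT2, SLC7A11, SLC7A5, SLC3A2, PCK2, DARS, GARS, HARS, LARS, NARS and VARS) were lost without 5 to 50 mM replicate 2, which left 16. Each library that started at 25 mM, and 5 to 50 mM replicate 1, also cost 4 to 9 calls among these 11 when left out.

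Over both comparisons, which rest on different libraries but on 1 shared fit, 18 members were called lower from 25 mM in each: the 16 of the ATF4 group and NARS and WARS (18.8% of all genes tested). DARS, HARS and QARS were called higher in each (13.8% of all genes tested). By raw order, all 4 libraries from 5 mM stood above all 4 from 25 mM for 21 members (26.5% of all genes tested). The reverse held for 8 members, ALDH1L2, DARS, EPRS, HARS, KARS, LARS, QARS and VARS (21.9% of all genes tested). The remaining 13 overlapped, among them ATF4, ATF3, CEBPB, SLC7A5 and SHMT2. For the ATF4 group the counts were 18, 1 and 5, and for the synthetases 3, 7 and 8.

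**Figure D3:**
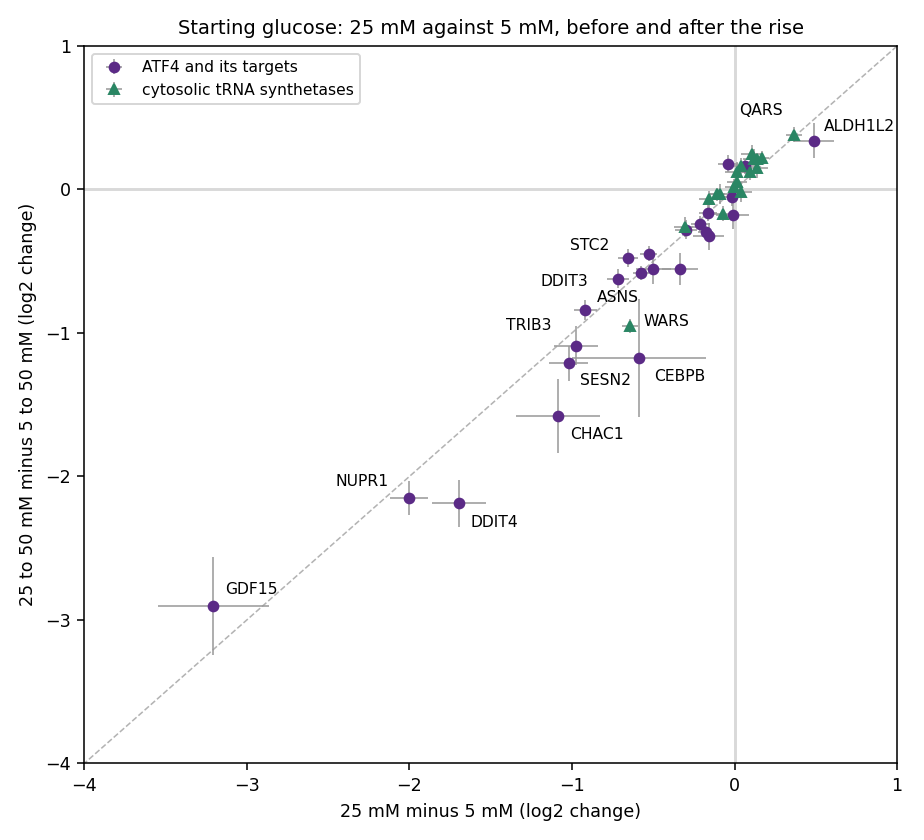
Log2 change of the 42 members between starting cultures at the maintenance level (25 mM minus 5 mM, x axis) and after the rise (25 to 50 mM minus 5 to 50 mM, y axis), with standard errors as bars, circles for ATF4 and its targets and triangles for synthetases, and the line of equal change dashed. GDF15, NUPR1 and DDIT4 lie farthest below 0 on both axes, and WARS is the lowest synthetase.

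The rise from 5 to 50 mM for 24 h gave no call among the members. Limma called 0 of 42 over 11849 genes tested, of which it called 0.329%. At an unadjusted p under 0.05, ATF3, SLC7A11 and WARS were higher (all genes tested 5.16%) and ASNS and PSAT1 lower (5.36%). The median log2 change was 0.008 for the ATF4 group, -0.011 for the synthetases and -0.028 for all genes tested. WARS, at 120.4 and 121 RPKM before and 147 and 148 RPKM after, had a log2 change of 0.28 (SE 0.050, 95% interval 0.16 to 0.41, adjusted p = 0.161, limma). Its groups did not overlap and each pair of libraries lay within 1 RPKM.

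WARS passed in a joint fit of 8 libraries, after the GC correction, and without either 5 mM library. ATF3 had a log2 change of 0.26 (95% interval 0.004 to 0.52), SLC7A11 one of 0.23 (0.008 to 0.44), ASNS one of -0.19 (-0.37 to -0.000) and PSAT1 one of -0.15 (-0.29 to -0.014). CHAC1 had the largest positive value, 0.30 (95% interval -0.22 to 0.81), and GDF15 the largest negative one, -0.59 (-1.32 to 0.15). Both intervals are wide because the 5 mM libraries differed. ATF4 had a log2 change of 0.10 (-0.043 to 0.24). Without 5 mM replicate 3, 4 members were called (ATF3, CHAC1 and WARS higher, AARS lower), and without 5 mM replicate 1, 2 were (WARS higher, GDF15 lower). In such fits the lone library is assumed to vary like the other group. The share of all genes called in them is not given, so these calls cannot be set against all genes.

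The rise from 25 to 50 mM also gave 0 calls of 42 by limma over 11422 genes tested, of which it called 0.00876%. At an unadjusted p under 0.05, SHMT2 and STC2 were higher (all genes tested 2.80%) and DDIT4 and CTH lower (6.45%). The median log2 change was -0.026 for the ATF4 group, 0.026 for the synthetases and -0.035 for all genes tested. DDIT4, at 11.3 and 11.2 RPKM before and 7.92 and 5.78 RPKM after, had a log2 change of -0.65 (SE 0.14, 95% interval -0.98 to -0.33, adjusted p = 0.453, limma). STC2 had one of 0.19 (SE 0.043, adjusted p = 0.49, limma). CEBPB had one of -0.64 with a wide interval (-1.36 to 0.083), and CTH one of -0.30 (-0.56 to -0.033).

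Without 25 to 50 mM replicate 2, which left the GC-departing replicate 3 to stand for its group, 5 members were called (STC2 higher, and DDIT4, CHAC1, CEBPB and GDF15 lower). With each other library left out the count was 0. The share of all genes called in these fits is not given, so their calls cannot be set against all genes. ATF4 had a log2 change of 0.064 (-0.090 to 0.22) and DDIT3 one of 0.017 (-0.17 to 0.20) in this rise.

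**Figure D4:**
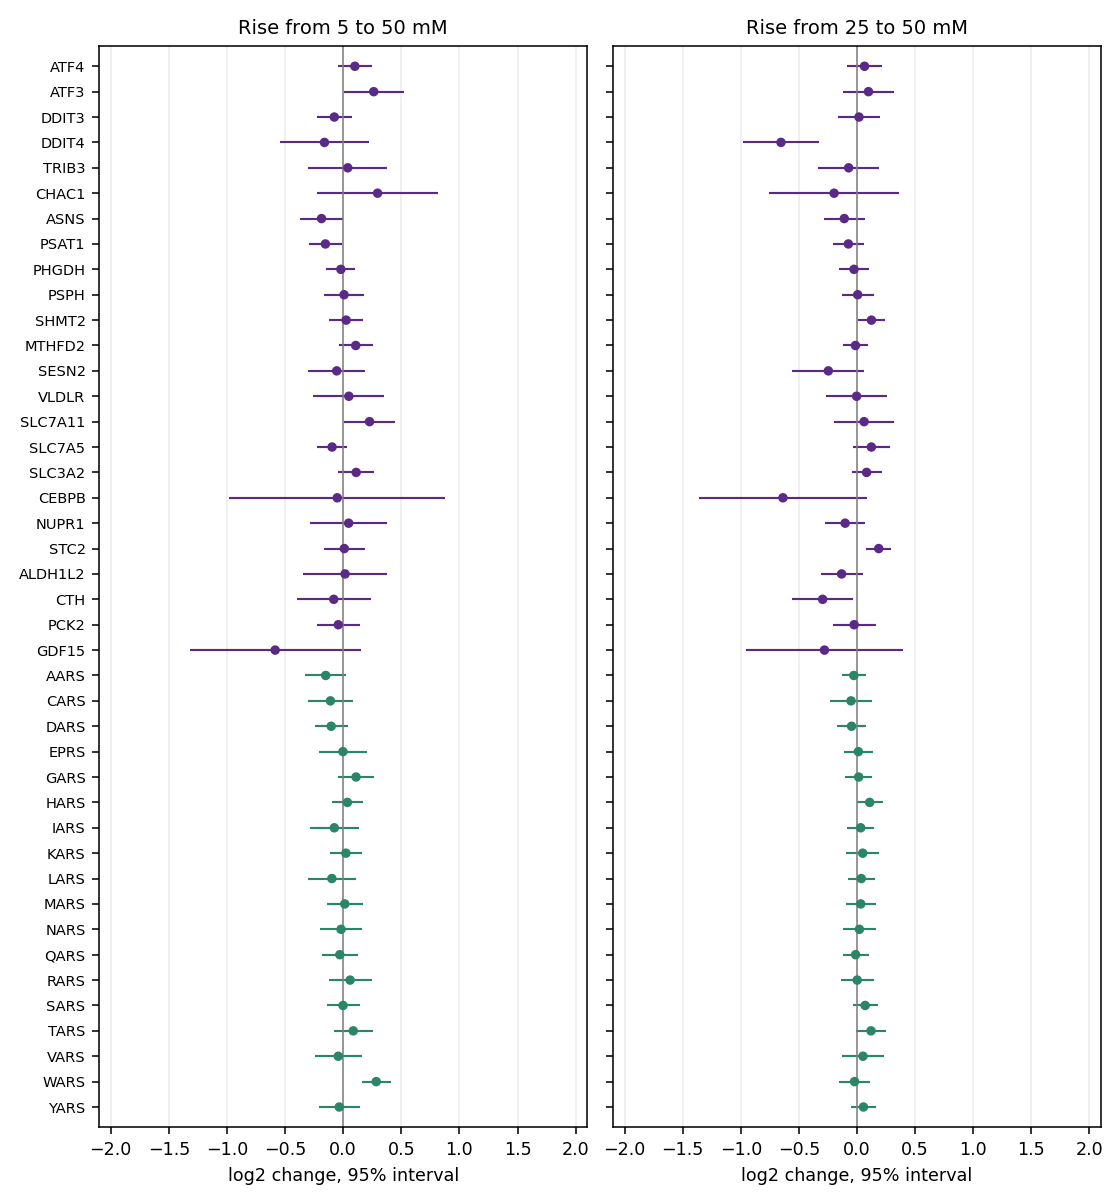
Log2 change on the rise from 5 to 50 mM (left) and from 25 to 50 mM (right) for ATF4 and its targets (purple) and the synthetases (green), points with 95% intervals from limma. Most synthetase intervals are narrow and cross 0, and CEBPB, CHAC1 and GDF15 have the widest intervals.

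The difference between the rises, tested directly over all 8 libraries, also gave 0 calls of 42 (0.0251% of 11941 genes tested were called). At an unadjusted p under 0.05, SLC7A5 was higher (all genes tested 2.29%) and WARS lower (3.74%). The WARS difference was -0.31 on the log2 scale (SE 0.068, 95% interval -0.46 to -0.15, adjusted p = 0.406, limma). That of SLC7A5 was 0.22 (SE 0.085, adjusted p = 0.803, limma), and that of DDIT4 was -0.49 (95% interval -1.04 to 0.056). For ATF4 it was -0.036 (-0.25 to 0.17).

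Genes near this response in function were read from the same fits, in which 22.1% of all genes tested were lower and 17.0% higher at 25 mM against 5 mM. Of 16 eIF2 kinases, phosphatases, exchange factors and ATF4 partners, 4 were lower and 3 higher at 25 mM against 5 mM, with a median log2 change of -0.085. EIF2AK2, the kinase PKR that senses viral RNA and is induced by interferon, was lower (-0.97, SE 0.066), as were PPP1R15A, the stress-induced phosphatase subunit GADD34 induced downstream of ATF4 (-0.77, SE 0.043), ATF5 (-0.45) and EIF2B5 (-0.22). EIF2AK3, the kinase PERK of the endoplasmic reticulum, was higher (0.28), as were the amino acid sensor EIF2AK4, the kinase GCN2 (0.21), and EIF2B1 (0.32). Of 8 tested other amino acid transporters, 4 were lower and 0 higher by limma, and 0 were higher at an unadjusted p under 0.05 (median -0.28), where 21.9% of all genes tested were. The lower ones were SLC38A1, a glutamine carrier (-0.86), SLC1A4 (-0.76), the glycine carrier SLC6A9 (-0.46) and SLC36A1 (-0.36).

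The ATF6 and XBP1 arms of the unfolded protein response, which raise chaperones, gave calls in both directions. Of 16 genes, 6 were higher at 25 mM (HSPA5, HSP90B1, DNAJC3, MANF, PDIA4 and HYOU1) and 3 lower (ERN1, DNAJB9 and EDEM1), with a median log2 change of 0.055. HSPA5, the main chaperone of the endoplasmic reticulum, had the largest positive value (0.87, SE 0.038), and ERN1, the sensor IRE1, the largest negative one (-0.70, SE 0.10). In both rises limma called 0 genes in each of these lists. At an unadjusted p under 0.05 from 5 mM, 1 of the eIF2 list, 2 of the transporters and 2 of the chaperone arms were higher and 1 of the latter lower. From 25 mM only 2 transporters were higher.

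The mitochondrial synthetases are coded by nuclear genes, most of them separate from those of the cytosolic ones. Of 17, 4 were higher at 25 mM (EARS2, NARS2, RARS2 and TARS2) and 3 lower (HARS2, MARS2 and PARS2), shares near the 17.0% and 22.1% of all genes tested. The median log2 change was 0.062, with the extremes at EARS2 (0.55) and MARS2 (-0.41). Their summed level was 393 to 412 RPKM in the 4 libraries from 25 mM and 347 to 372 RPKM in the 4 from 5 mM, without overlap. The summed level of the 18 cytosolic ones was 1948 to 2059.6 RPKM and 1903 to 2071 RPKM, with overlap. NARS and NARS2, for the same amino acid, were called in opposite directions (-0.30 and 0.51), as were HARS and HARS2 (0.14 and -0.23). Of 5 other genes of cytosolic charging, FARSB (0.25) and the complex scaffolds AIMP1 and AIMP2 were higher and EEF1E1 was lower (-0.30). In both rises limma called 0 of the mitochondrial synthetases, with 2 lower from 5 mM and 1 lower from 25 mM at an unadjusted p under 0.05.

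The same lists were read after the rise, at 25 to 50 mM against 5 to 50 mM. In that comparison 23.3% of all genes tested were lower and 18.1% higher. Of the 16 genes of the eIF2 list, 4 were lower in cells from 25 mM, EIF2AK2 (-1.20), PPP1R15A, ATF5 and CEBPG. The 2 higher ones were EIF2AK4 and EIF2B1 (0.43). Of the 8 other transporters tested, 5 were lower and 0 higher, the lower ones being SLC6A9 (-0.94), SLC38A1, SLC1A4, SLC38A2 and SLC43A1. At an unadjusted p under 0.05 by limma, 1 was higher and 6 lower. Of all 11941 genes tested, 2692 were higher and 3325 lower by that measure. Of the 16 genes of the chaperone arms, 7 were higher, HSPA5 (0.89), HYOU1, HSP90B1, DNAJC3, PDIA4, MANF and SEL1L. The 4 lower ones were ERN1 (-0.56), DNAJB9, EDEM1 and XBP1. Of the 17 mitochondrial synthetases 6 were higher, RARS2 (0.55), EARS2, NARS2, TARS2, FARS2 and IARS2, and 2 lower, HARS2 (-0.28) and YARS2. FARSB (0.44), AIMP1 and AIMP2 were again higher and EEF1E1 (-0.23) lower.

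Since WARS is known to be induced by interferon, a list of interferon response genes was read beside it. All 10 were lower at 25 mM than at 5 mM, with a median log2 change of -2.49, led by OAS1 (-3.47, SE 0.37), which activates RNA decay. Of all genes tested, 22.1% were lower there. On the rise from 5 to 50 mM, limma called 5 of 10 higher (IFIT1, IFIT2, IFIT3, OAS1 and GBP1) and the median was 0.67. In that rise 0.329% of all genes tested were called. From 25 mM limma called 0 of 9 tested, with 0 at an unadjusted p under 0.05 and a median of -0.16. In 25 to 50 mM against 5 to 50 mM all 10 were again lower (median -3.42), where 23.3% of all genes tested were. In the difference between the rises 0 of 10 passed by limma. At an unadjusted p under 0.05, 9 were lower (all genes tested 3.74%). The part of this response in the WARS values was not tested.

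The spread within groups was uneven among members. At 5 mM 8 members differed by over 1.2-fold between the libraries (DDIT4, TRIB3, CHAC1, VLDLR, CEBPB, NUPR1, ALDH1L2 and GDF15), and at 25 to 50 mM 6 did (DDIT4, TRIB3, CHAC1, SESN2, CEBPB and GDF15). At 25 to 50 mM these 6 were all higher in replicate 2. At 5 mM VLDLR and ALDH1L2 were higher in replicate 1 and the others of the 8 in replicate 3. The part of the departures by GC in this order was not tested. At 25 mM only SLC7A11 and CEBPB differed by over 1.2-fold, and at 5 to 50 mM only CEBPB and CTH. GDF15 at 25 to 50 mM had the widest gap, 3.36-fold, at 13 reads in the lower library. The median ratio of the higher to the lower library over the 42 members was 1.09 at 5 mM, 1.06 at 25 to 50 mM and 1.02 in each of the other groups.

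Some members share sequence with other genes, and how such reads were counted is not given in the sources used here. Pseudogenes are annotated for ATF4, ASNS, PSAT1, PSPH, MTHFD2, SLC7A5, AARS, CARS, GARS, KARS, NARS, RARS and WARS. Exons overlap an antisense gene over 41.2% of their length in DDIT4, 33.2% in MTHFD2 and 31.6% in DDIT3, and a gene on the same strand over 44.6% in ASNS, so values of these genes may hold reads of their neighbours.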

How the data were processed

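Total RNA of 8 AC16 libraries was sequenced. The submitters' processing notes name STAR and hg38. The authors deposited RPKM values per gene in 2 tables, 1 per starting glucose; the counting tool, the annotation and the strand setting are not given in the sources used here. Samples were grouped by their titles. Whole reads came out within 0.01 for 100% of the 16297 genes above 0, which gave the library totals. No count test was run, since it is not the test for RPKM.

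A pseudocount of 1 RPKM was added before taking log2, and genes reaching 1 RPKM in 2 or more of the libraries fitted went into the test, limma's moderated test (version 3.58.1, R 4.3.3, trend, two-sided, Benjamini-Hochberg over all genes, threshold 0.05). Each rise was fitted on its own 4 libraries and the other comparisons on all 8; upper quartiles differed by 1.06 times at most. The script was tested on simulated data. The members and lists were chosen with earlier results of these data known. Values by library are given for 15 members in any case, for each member called in any comparison and for the 3 largest changes in each direction; genes of other lists are named where called or at an extreme. Gene positions and promoter sequences are from RefSeq (GRCh38.p14), in which 18 members have a newer symbol (AARS1 for AARS), and GC content is from GENCODE transcripts. The promoters of 2 members are not reported here. Alternatives were another pseudocount, other filters, median centring, no trend, other sets of libraries and a replicate block. A GC correction (a spline with 5 degrees of freedom) and leaving out both libraries that depart most by GC were added after seeing the data.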

Additional observations from a re-analysis of the deposited data

How the results depend on the processing

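With 1 library left out, limma's counts of called members ran from 12 to 22 at 25 mM against 5 mM (22 with all), 16 to 33 at 25 to 50 mM against 5 to 50 mM (27 with all), 0 to 5 on the rise from 25 mM and 0 to 4 on the rise from 5 mM (0 with all in both). Shares of all genes called with 1 library left out or in the other settings are not given. These counts therefore cannot be set against all genes. On the rise from 5 mM the joint fit of 8 libraries and the GC correction each called 1 member, WARS. The difference between the rises gave 0 calls in every setting tried. GARS at 25 to 50 mM against 5 to 50 mM went from a log2 change of -0.17 to 0.013 (adjusted p = 0.917, limma) with the GC correction, where the cause was not tested. Over 17 settings (16 for CTH and VLDLR, which a filter at a mean of 5 RPKM left out) no other called member changed sign: calls were kept in 321 of 372 cases at 25 mM against 5 mM and in 392 of 457 at 25 to 50 mM against 5 to 50 mM.

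A replicate block over 8 libraries, which left 2 residual degrees of freedom, called 17 members at 25 to 50 mM against 5 to 50 mM and 17 at 25 mM against 5 mM. The share of all genes called with the block is not given. Deviations of same-numbered libraries from their group means correlated across genes at -0.67 to 0.26. With 2 libraries per group the deviations mirror each other, so these correlations cannot show whether the replicate numbers pair the samples. The rises could not be fitted with a block on their own 4 libraries, since each pair of groups shares 1 number. Depth did not keep any member out of a test, but GDF15, CHAC1 and CTH rest on as few as 13, 43 and 66 reads.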
